A study of Mus musculus with 9 samples.

Results

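The proteins described here are those of the mitochondrial ribosome (mitoribosome) that carry the gene symbols Mrpl, for the large subunit, and Mrps, for the small subunit. Members were the genes whose symbol is Mrpl or Mrps followed by a number and at most 1 letter, taken from probe sets with a single annotated symbol. Where a gene has several, the one with the highest mean over the 9 arrays stands for it. This gave 76 genes of the 18193 on the array, covered by 156 probe sets. All 76 were among the 13278 genes tested and lay above the background level on all 9 arrays, so no member was lost to the filter on low values. Mrpl30 and Mrpl53 share their probe sets with a second symbol and have no member.

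The cells were CD8 cytotoxic T lymphocytes (CTL) from spleens of wild type mice of the P14-TCR strain, whose transgenic T cell receptor recognises the gp33-41 peptide of lymphocytic choriomeningitis virus. They were activated with that peptide and IL-2/12 for 48 h and cultured for another 96 h, to day 6. For the last 48 h 3 cultures held DMSO, the solvent, 3 held 20 nM of rapamycin, and 3 held KU-0063794 at a concentration of 1 uM. One spleen gave 1 culture of each group, so that arrays with the same replicate number share a spleen, and all groups share the transgene, the peptide and the cytokines. Rapamycin acts mainly on mTOR complex 1, and KU-0063794 inhibits the mTOR kinase in both of its complexes. The comparisons ask which transcripts of established CTL depend on mTOR activity.

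The mitoribosome translates the few proteins encoded by mitochondrial DNA, which are subunits of the respiratory chain and of ATP synthase. Its RNA is made in the mitochondrion, but all of its proteins are encoded in the nucleus, made in the cytosol and imported. Part of them descend from bacterial ribosomal proteins and part were added in the course of mitochondrial evolution. Activated T cells enlarge their mitochondria as they divide, and mTOR complex 1 is known to promote the translation and transcription of nuclear genes for mitochondrial proteins.

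Signals are log2 values of the array, and a difference of 1 is a 2-fold change. The background level was 1.38 log2, the 95th percentile of 27 genes restricted to other tissues. Array medians were 0.47 to 0.53 log2, and each array had 29.7% to 30.3% of its probe sets above background. All 10 CD8 T cell markers measured were above it on every array, including Cd8a and Cd8b1. At most 1 of 6 B cell markers and 1 of 7 myeloid markers were above it, and none of 3 CD4 T cell, 1 NK cell or 2 erythroid markers. The summed linear signal of the B cell markers was 9.2 to 12.0 with DMSO, 7.6 to 11.4 with rapamycin and 8.9 to 10.6 with KU-0063794, against 2438.9 to 2753.7 for the CD8 markers over all 9 arrays. For the myeloid markers it was 11.2 to 12.3, 10.1 to 11.0 and 10.5 to 12.0, and the Cd68 gene among them fell with rapamycin while below the background level (limma adjusted p = 0.0208). As a sign of RNA quality, the actin control's 3' probe set exceeded its 5' probe set by 0.49 to 0.65 log2 on DMSO arrays, by 0.62 to 0.72 on rapamycin arrays and by 0.65 to 0.70 on KU-0063794 arrays. For the Gapdh control the same difference was -0.21 to 0.04, -0.25 to -0.03 and -0.22 to -0.03. In each spleen both treated arrays were above DMSO for actin and below it for Gapdh. The part of these markers and of RNA quality in the results was not tested.

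The promoters of the 3 genes that passed the test in the main fit are shown first, because several factors that bind such promoters were measured as well. The nuclear respiratory factor NRF1, the ETS family factor GABP, YY1 and MYC are known regulators of nuclear genes for mitochondrial proteins. The windows run from 250 bases before to 50 bases after the gene start (RefSeq, GRCm38.p6), on the strand of the gene. They are Mrpl32 at chr13:14612988-14613287 (minus strand), Mrpl22 at chr11:58171414-58171713 (plus strand) and Mrpl45 at chr11:97315466-97315765 (plus strand). Capitals mark matches to the ETS core (CCGGAAG), the NRF1 core (GCATGCG), the YY1 core (AAGATGG) or the E-box bound by MYC (CACGTG) on either strand.
Mrpl32: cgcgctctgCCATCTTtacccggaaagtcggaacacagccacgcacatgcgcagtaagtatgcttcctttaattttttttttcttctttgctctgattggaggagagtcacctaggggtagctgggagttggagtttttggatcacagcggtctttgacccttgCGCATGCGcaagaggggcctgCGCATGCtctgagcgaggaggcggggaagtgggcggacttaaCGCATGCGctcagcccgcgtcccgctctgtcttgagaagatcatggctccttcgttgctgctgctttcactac
Mrpl22: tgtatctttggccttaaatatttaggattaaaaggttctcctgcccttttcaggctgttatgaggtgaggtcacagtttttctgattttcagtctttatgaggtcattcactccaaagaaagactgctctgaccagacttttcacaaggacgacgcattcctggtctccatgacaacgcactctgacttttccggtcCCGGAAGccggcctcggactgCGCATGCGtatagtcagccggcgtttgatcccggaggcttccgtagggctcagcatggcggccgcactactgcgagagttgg
Mrpl45: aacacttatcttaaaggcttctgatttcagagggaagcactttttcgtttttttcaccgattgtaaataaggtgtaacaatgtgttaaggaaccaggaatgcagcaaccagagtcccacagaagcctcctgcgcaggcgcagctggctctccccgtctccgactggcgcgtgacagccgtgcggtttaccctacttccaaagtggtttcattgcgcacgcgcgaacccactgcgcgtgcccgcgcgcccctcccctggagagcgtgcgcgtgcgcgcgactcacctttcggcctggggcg

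The Mrpl32 window held 6 matches: 5 to the NRF1 core, which overlap where both strands match, and 1 to the YY1 core on the opposite strand, written there as CCATCTT. The Mrpl22 window held 1 match to the ETS core and 2 overlapping matches to the NRF1 core, and the Mrpl45 window held none. RefSeq windows were matched for 67 of the 76 members, 73 windows in all. Of these, 34.2% held the ETS core, against 8.86% of all 32851 windows and 20.6% of windows of genes above the background level. The NRF1 core stood in 11% of member windows, against 3.58% and 7.01%. The YY1 core stood in 17.8%, against 6.34% and 8.07%, and the E-box in 9.59%, against 7.15% and 10.8%. The 7 windows with an E-box belong to 5 genes, since Mrpl2 has 3 windows with 1 match each. By gene, the E-box stood in 5 of 67 members, against 2187 of 27025 genes with a window and 843 of 6607 above the background level. The higher share of member windows than of all windows is therefore not seen by gene. The plot of motif positions shows where the matches lay. Of 16 matches to the ETS core on the gene's own strand, 12 began within 100 bases upstream of the start. Of 13 on the opposite strand, 5 lay there and 7 lay downstream. Of 10 matches to the YY1 core on the gene's own strand, 8 lay downstream of the start, while 3 of 5 on the opposite strand lay over 100 bases upstream. Of the 7 E-box matches 5 lay over 100 bases upstream. These include the 3 of Mrpl2, at -131, -139 and -147, and whether those are 1 site in overlapping windows was not examined. These are matches of letters, with no measurement of binding.

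**Figure D1:**
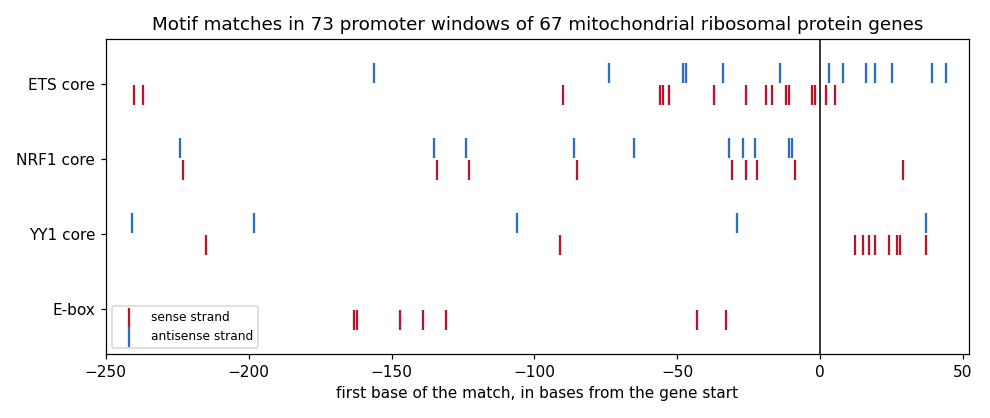
Position of each motif match in 73 promoter windows of 67 mitochondrial ribosomal protein genes, in bases from the gene start (vertical line), by motif and strand (red, the gene's strand; blue, the opposite strand). On the gene's strand, 12 of 16 ETS core matches lie within 100 bases upstream of the start and 8 of 10 YY1 core matches lie downstream of it. On the opposite strand, 5 of 13 ETS core matches lie within 100 bases upstream. Of 7 E-box matches 5 lie over 100 bases upstream, among them all those in the windows of Mrpl2.

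With rapamycin, few mitoribosomal genes passed the test and most differences were small. In limma, at a Benjamini-Hochberg adjusted p under 0.05 over all genes tested, 3 members fell (Mrpl32, Mrpl22 and Mrpl45), none rose and 73 did not pass. The 3 are 3.95% of the members, against 1.79% of all genes tested called lower and 2.65% called higher. All members lie above the background level. Of the 8018 genes tested above it, 222 were called lower and 338 higher, or 6.98% in either direction. With the spleen as a block, 8 members fell and none rose, against 5.52% and 6.24% of all genes. Of those 8018 genes 652 fell and 783 rose with the block. At an unadjusted p under 0.05, 18 members were lower and 5 higher, with 8.74% and 9.20% of all genes on those sides. Among the 8018 genes 926 were lower and 1097 higher. The median log2 fold change of the 76 members was -0.07, against -0.0043 for all genes tested. A negative value was found for 54 of the 76 (71.1%), against 51.1% of all genes tested. With any 1 array or spleen left out that median was between -0.1044 (without spleen 1) and -0.0469 (without spleen 3).

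The median over the members was below 0 in each spleen. A shift of this size depends on how the arrays were scaled, which is not known for the deposited values; after a further quantile normalization or median centring the overall median was -0.0767 or -0.0733, with all genes tested at -0.0095 or -0.0103. The rapamycin array was below the DMSO array of the same spleen for 44 members in spleen 1, 55 in spleen 2 and 55 in spleen 3. These are 57.9%, 72.4% and 72.4% of the members, against 47.2%, 45.5% and 50.8% of all genes tested. The median differences were -0.03, -0.09 and -0.14 log2, while those of all genes tested were between -0.0089 and 0. In all 3 spleens 35 members (46.1%) were lower, against 21.4% of all genes, and 9 (11.8%) were higher, against 19.7%. The 3 rapamycin arrays all lay below the 3 DMSO arrays for 18 members, or 23.7% of them, against 9.69% of all genes. They lay all above for 6 (7.89%), against 9.38%. Among genes above the background level those shares were 12.8% below and 14.0% above. Genes on one set of arrays are not independent of each other, and no test was made of the group as a whole. In such bulk RNA, fewer cells of a type and less RNA per cell cannot be told apart.

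With KU-0063794, 2 members fell (Mrpl32 and Mrpl45), none rose and 74 did not pass. The 2 are 2.63% of the members, and the shares of all genes tested were 1.78% lower and 2.28% higher. Of the 8018 genes above the background level 227 were called lower and 299 higher, or 6.56% in either direction. With the spleen as a block 4 members fell and 2 rose, against 5.86% and 6.52% of all genes. Of those 8018 genes 724 fell and 835 rose with the block. At an unadjusted p under 0.05, 8 were lower and 6 higher, against 8.43% and 10.0%. Among the 8018 genes 958 were lower and 1186 higher. The median over the members was -0.01, against 0.01 over all genes tested. Of the 76 values 39 (51.3%) were negative, against 46.8% of all genes tested. By spleen the medians were 0, -0.01 and -0.02, against 0, 0.01 and 0 for all genes tested. In all 3 spleens 27 members (35.5%) were lower and 22 (28.9%) higher, against 19.3% and 22.1% of all genes. The KU-0063794 arrays lay wholly below the DMSO arrays for 14 members (18.4%), against 9.29% of all genes. They lay wholly above for 9 (11.8%), against 11.0%. Among genes above the background level those shares were 13.4% below and 16.1% above. Both comparisons use the same 3 DMSO arrays.

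**Figure D2:**
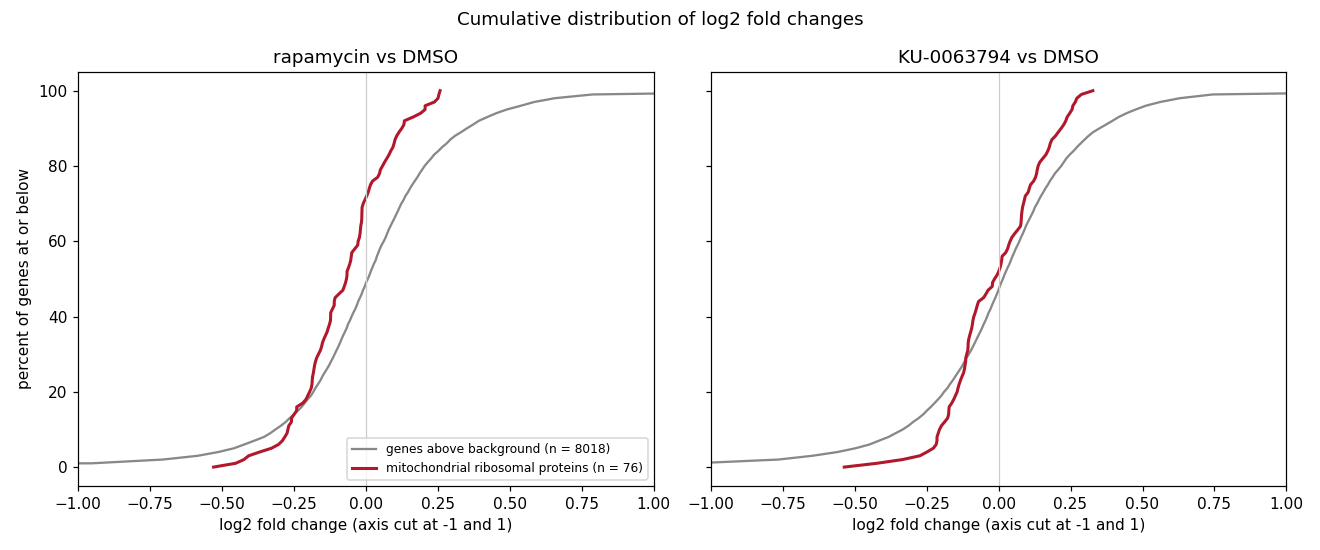
Cumulative share of genes (y axis, percent) at or below each log2 fold change (x axis) for rapamycin and KU-0063794 against DMSO, for the 76 mitochondrial ribosomal protein genes (red) and the 8018 genes above the background level (grey). The red curves are steeper than the grey ones, and with rapamycin the red curve crosses 50% at -0.07.

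The members' differences were mostly small beside those of other expressed genes. No member changed 2-fold with either inhibitor, as 91 (1.13%) and 102 (1.27%) of the 8018 genes above the background level did. With rapamycin 63 members (82.9%) stayed within 0.25 log2 of DMSO, against 69.8% of genes above the background level. With KU-0063794 the count was 68 (89.5%), against 68.3%. The median standard error of a member's difference was 0.09 log2, against 0.12 for genes above the background level.

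**Figure D3:**
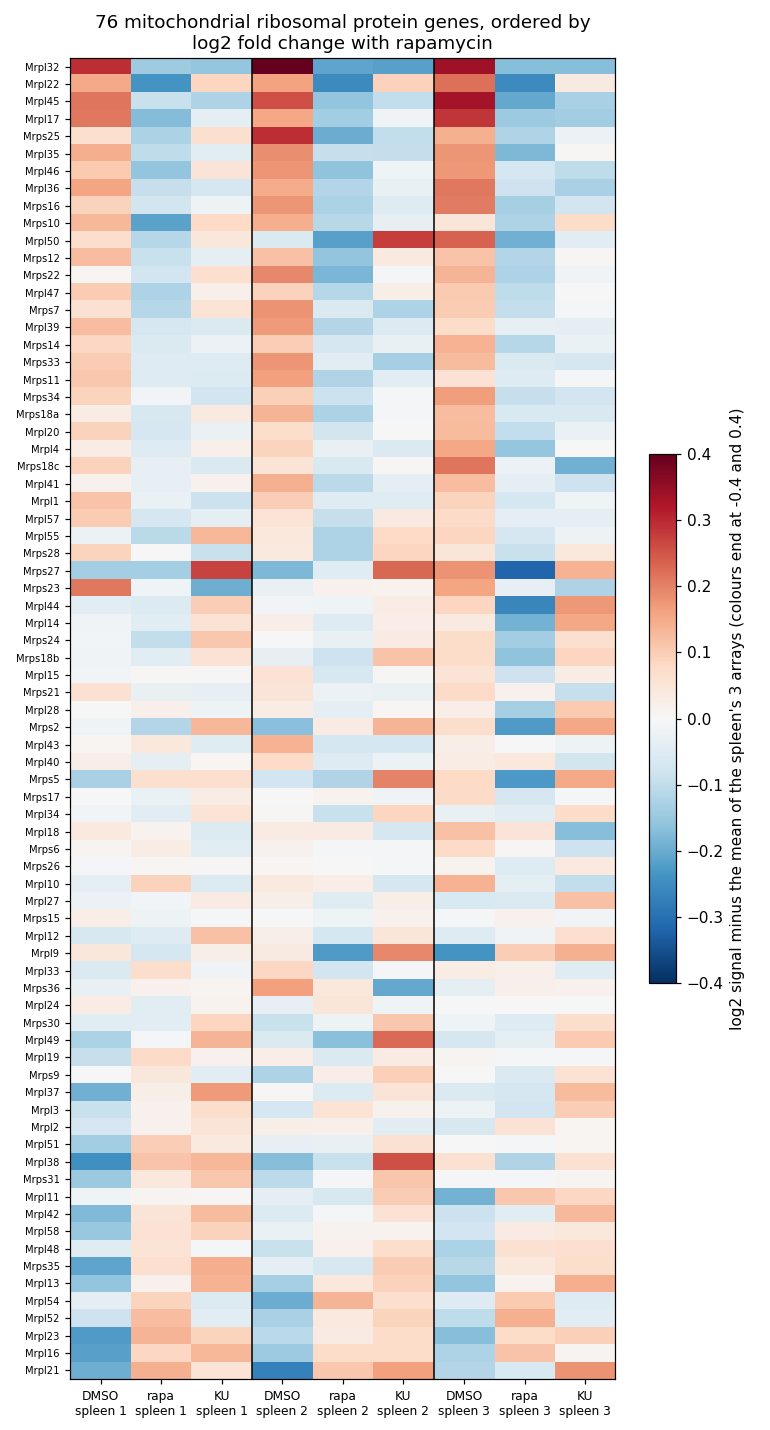
Log2 signal of each of the 76 genes (rows, ordered by the log2 fold change with rapamycin) on each of the 9 arrays (columns, grouped by spleen), as the difference from the mean of that spleen's 3 arrays. Red is higher and blue is lower, with the colours ending at -0.4 and 0.4. The top rows, from Mrpl32 to Mrps16, are red in the DMSO column of every spleen, and most of the middle rows are pale.

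Of the members that passed in the main fit, Mrpl32 had the largest difference. It encodes a zinc-binding large subunit protein of bacterial descent, which the m-AAA protease of the inner membrane must cleave before the subunit can be completed. Mrpl32 (1 probe set) read 5.93, 6.08 and 5.91 log2 in the DMSO cultures of spleens 1, 2 and 3. It read 5.49, 5.44 and 5.40 in rapamycin and 5.48, 5.43 and 5.40 in KU-0063794 cultures. Every treated array was below every DMSO array, and the values of the treated groups lay within 0.02 of each other in each spleen. The mean went from 5.97 ± 0.09 (SD, n = 3) to 5.44 ± 0.05 with rapamycin, a 1.44-fold fall (log2 fold change -0.53, SE 0.08, 95% interval -0.70 to -0.36, limma adjusted p = 0.0100). With KU-0063794 it was 5.43 ± 0.04 (log2 fold change -0.54, interval -0.71 to -0.36, adjusted p = 0.0114). It remained called in both comparisons when any single array was left out, but not when a whole spleen was, which left no member called.

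Mrpl45, a mitochondria-specific protein at the exit of the peptide tunnel that holds the ribosome to the inner membrane, fell with both inhibitors. It read 5.55, 5.75 and 5.79 log2 in DMSO, 5.25, 5.33 and 5.25 in rapamycin and 5.22, 5.39 and 5.33 in KU-0063794 cultures. The treated groups overlapped each other and neither overlapped DMSO. The log2 fold change was -0.42 (SE 0.09, interval -0.62 to -0.22, adjusted p = 0.0309) with rapamycin and -0.39 (interval -0.58 to -0.19, adjusted p = 0.0425) with KU-0063794. Without the spleen as a block these calls were fragile. The rapamycin call was lost without DMSO replicate 2 or 3, without any 1 of the 3 rapamycin arrays or without KU-0063794 replicate 3, and the KU-0063794 call was lost without any 1 of the 9 arrays. With the block, the rapamycin call held when any single array was left out (adjusted p = 0.0101 with all arrays). The KU-0063794 call (0.0133) was then lost without DMSO replicate 3, KU-0063794 replicate 1 or KU-0063794 replicate 3.

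Mrpl22 encodes a large subunit protein that lines the peptide exit tunnel, and it passed with rapamycin alone. It read 5.88, 5.96 and 6.00 log2 in DMSO and 5.48, 5.55 and 5.52 in rapamycin cultures, with no overlap. In KU-0063794 cultures it read 5.81, 5.90 and 5.81, each below the DMSO array of its spleen but overlapping that group. The rapamycin difference was -0.43 (SE 0.07, interval -0.59 to -0.27, adjusted p = 0.0148, or 0.00700 with the block), and it was not called without rapamycin replicate 1. The KU-0063794 difference was -0.11 (interval -0.27 to 0.06, adjusted p = 0.495). The direct comparison of the 2 inhibitors is given with the others of that kind.

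Where the spleen was a block, 5 more members fell with rapamycin, each lower in all 3 spleens. Mrpl17, a bacterial-type protein near the tunnel exit, read 6.32, 6.10 and 6.30 log2 in DMSO, 5.93, 5.81 and 5.87 in rapamycin and 6.07, 5.93 and 5.87 in KU-0063794 cultures. Its rapamycin difference was -0.37 (adjusted p = 0.0534, or 0.0177 with the block) and its KU-0063794 difference -0.28 (0.125, or 0.0445 with the block). Mrpl36, a small zinc-binding protein, read 5.39, 5.37 and 5.46 in DMSO, 5.13, 5.11 and 5.17 in rapamycin and 5.16, 5.19 and 5.12 in KU-0063794 cultures. Its differences were -0.27 (adjusted p = 0.0613, or 0.0382 with the block) and -0.25 (0.0868, or 0.0492). In both genes neither treated group overlapped DMSO. With the block, the Mrpl17 call with rapamycin was lost without DMSO replicate 1 or 3 or any 1 of the 3 rapamycin arrays, and the other 3 of these calls were lost without any 1 of the 9 arrays.

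The other 3 passed with rapamycin only with the spleen as a fixed block, and were not called when it was a random block. Mrpl35, a bacterial-type large subunit protein, read 6.62, 6.90 and 6.78 log2 in DMSO and 6.37, 6.63 and 6.42 in rapamycin cultures, so the groups overlapped although each spleen was lower (difference -0.29, adjusted p = 0.179, or 0.0314 with the block). Mrpl46, a mitochondria-specific protein of the central protuberance, went from 5.19, 5.47 and 5.34 to 4.92, 5.13 and 5.09 (-0.28, 0.179, or 0.0482 with the block). Mrps16, the only small subunit gene among them and one mutated in a fatal infantile respiratory chain disease, went from 7.72, 7.55 and 7.68 to 7.56, 7.24 and 7.34 (-0.27, 0.235, or 0.0422 with the block). With the block and any single array left out, 3 to 5 members fell, always Mrpl22, Mrpl32 and Mrpl45. Mrpl36, Mrpl46 and Mrps16 were in none of these sets of calls.

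Of the members on the higher side, 2 rose with KU-0063794 in the blocked fit, both bacterial-type large subunit proteins. Neither was called when the spleen was a random block. Mrpl21 read 5.34, 5.26 and 5.59 log2 in DMSO, 5.68, 5.64 and 5.65 in rapamycin and 5.59, 5.70 and 5.89 in KU-0063794 cultures. The KU-0063794 difference was 0.33 (adjusted p = 0.133, or 0.0487 with the block) and the rapamycin difference 0.26 (0.245, or 0.106 with the block). Mrpl13 read 6.28, 6.57 and 6.40 in DMSO, 6.45, 6.74 and 6.57 in rapamycin and 6.57, 6.79 and 6.70 in KU-0063794 cultures, with differences of 0.27 for KU-0063794 (0.217, or 0.0297 with the block) and 0.17 for rapamycin. Its other 2 probe sets above the background level were higher as well. With the block, both calls were lost when any 1 array other than rapamycin replicate 3 was left out.

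Other members at the upper end did not pass in either of these fits. Mrpl23, a protein at the tunnel exit, read 6.08, 6.25 and 6.20 log2 in DMSO, 6.44, 6.39 and 6.45 in rapamycin and 6.39, 6.43 and 6.47 in KU-0063794 cultures, with no overlap (differences 0.25 and 0.25, adjusted p = 0.105 and 0.0991, or 0.0595 and 0.0534 with the block). With the spleen as a random block it was called higher with both inhibitors. The 5 highest with rapamycin also include Mrpl16, a protein near the peptidyl transferase centre (0.25), Mrpl52 (0.21) and Mrpl54 (0.21). Those with KU-0063794 include Mrpl38, a protein of the central protuberance (0.27), and Mrps27, an RNA-binding protein of the small subunit (0.26). Both had low mean signals, 2.30 and 2.41 log2, and the other Mrpl38 probe sets were below the background level. At the lower end and not passed in these fits were Mrps25 with rapamycin (-0.31, adjusted p = 0.101) and Mrps33 with KU-0063794 (-0.22, adjusted p = 0.184), both mitochondria-specific small subunit proteins.

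**Figure D4:**
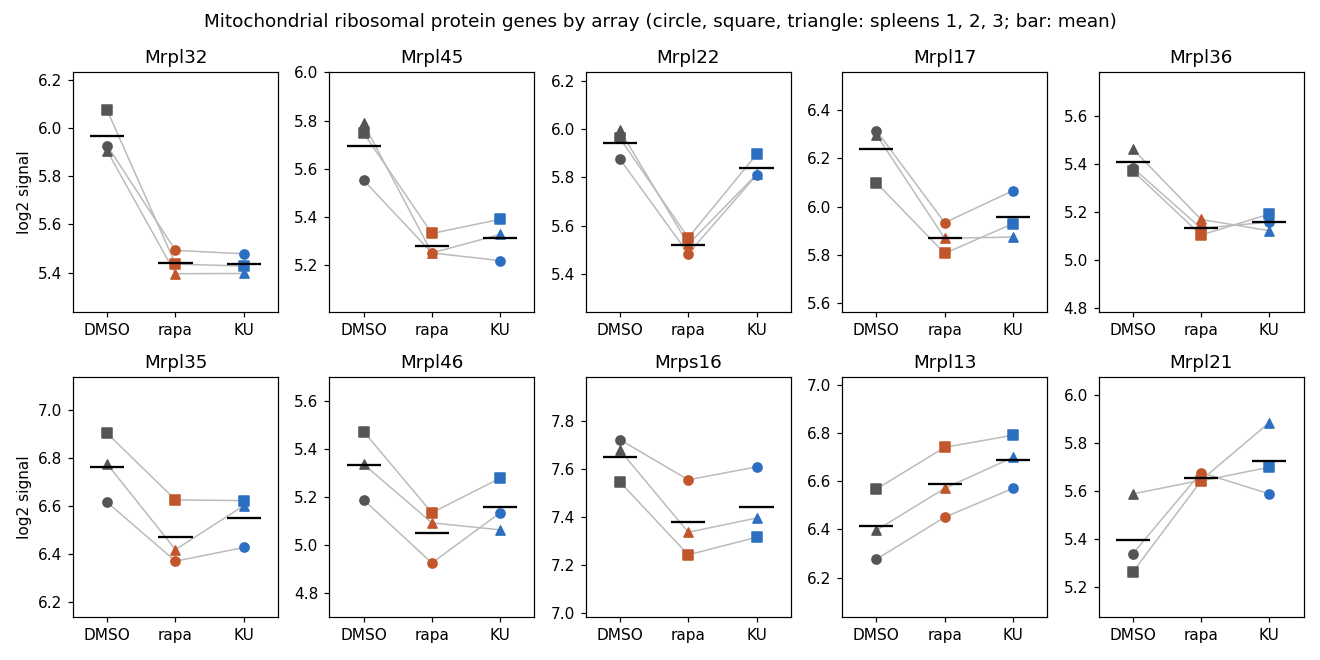
Log2 signal of the 10 members called in a comparison against DMSO without or with the spleen as a block, by group. Symbols show the spleen (circle 1, square 2, triangle 3), grey lines join arrays of a spleen and the black bar is the mean of 3 arrays. Mrpl32, Mrpl45, Mrpl17 and Mrpl36 are below DMSO in both treated groups, Mrpl22 is lowest in rapamycin, and Mrpl13 and Mrpl21 are above DMSO in both.

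By subunit and descent, the members called without the block were all in the large subunit, whose classes are larger (29 and 20 genes, against 16 and 10). Of all genes tested, 8.74% with rapamycin and 8.43% with KU-0063794 were lower at an unadjusted p under 0.05. With the block 5.52% and 5.86% were called lower. Of 16 small subunit proteins with bacterial homologues none passed with either inhibitor, 1 was called with the block for rapamycin, and 5 (rapamycin) and 1 (KU-0063794) were lower at an unadjusted p under 0.05. Their median differences were -0.12 and -0.07, and 15 of 16 values were negative with rapamycin, against 51.1% of all genes tested. They include Mrps12, a protein of the decoding centre (-0.24 with rapamycin, adjusted p = 0.258, or 0.0525 with the block), and Mrps7 (-0.20). Of 10 mitochondria-specific small subunit proteins none passed without the block or with the spleen as a fixed block, 3 and 1 were lower at an unadjusted p under 0.05, and the medians were -0.12 and -0.04. With rapamycin their values ran from -0.31 (Mrps25) to 0.13 (Mrps35), and Mrps25 was called lower when the spleen was a random block.

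Large subunit proteins spread more widely in both directions. Of all genes tested, 1.79% with rapamycin and 1.78% with KU-0063794 were called lower without the block. With the block 5.52% and 5.86% were lower, and 6.24% and 6.52% higher. Of 29 with bacterial homologues 2 fell with rapamycin and 1 with KU-0063794, against 5 and 3 lower and 0 and 2 higher with the block. The medians were -0.03 and 0.01, within ranges of -0.53 to 0.26 and -0.54 to 0.33. Of 20 mitochondria-specific ones 1 fell with each inhibitor, or 2 and 1 with the block. Their medians were -0.02 and 0.09, with 10 and 8 of 20 values negative. This class includes Mrps18a and Mrps30, whose proteins sit in the large subunit in spite of their names, and Mrpl58, a release factor built into the ribosome (0.12 and 0.13, not passed). Mrps36, now placed in the 2-oxoglutarate dehydrogenase complex and outside the mitoribosome, was at -0.0054 and -0.09. Differences between the classes were not tested.

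**Figure D5:**
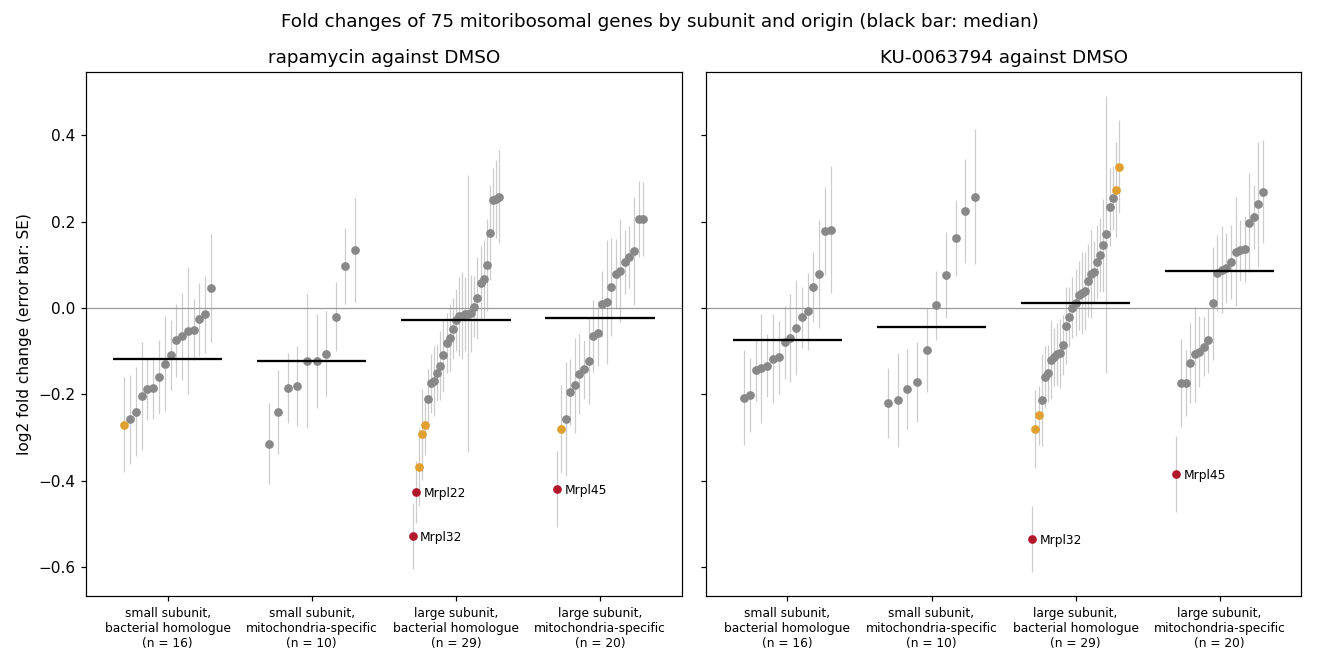
Log2 fold change of 75 mitoribosomal genes (all members but Mrps36) against DMSO, by subunit and descent, for rapamycin and KU-0063794. Points are genes with standard errors, black bars are class medians, red marks genes called in limma and orange those called only with the spleen as a block. The 3 red points with rapamycin and the 2 with KU-0063794 are large subunit proteins.

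Between the 2 inhibitors no member and no gene of the 13278 passed, in limma without or with the block (0% in each). At an unadjusted p under 0.05, 3 members were higher with KU-0063794 and none lower, against 2.82% and 1.91% of all genes. Of the 8018 genes above the background level 214 were higher and 196 lower. The median member was 0.06 log2 higher with KU-0063794, against 0.01 for all genes tested. Of the 76 values 57 were positive, against 7142 of the 13278 genes tested. By spleen the medians were 0.04, 0.07 and 0.06, against 0, 0 and 0.01 for all genes tested. In all 3 spleens 31 members (40.8%) were higher, against 16.3% of all genes, and 6 were lower, against 13.3%. The 3 arrays of KU-0063794 were wholly above those of rapamycin for 7 members (9.21%), against 4.87% of all genes. They were wholly below for 2 (2.63%), against 3.30%. Among genes above the background level those shares were 5.57% above and 4.49% below. The doses differ, 1 uM and 20 nM, so the readouts stand side by side and are not matched in dose.

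Mrpl22 stood out by its interval in that comparison. Its 3 KU-0063794 arrays, 5.81 to 5.90 log2, were above its 3 rapamycin arrays, 5.48 to 5.55, with a difference of 0.32 (interval 0.16 to 0.48, unadjusted p = 0.00140, limma adjusted p = 0.933, or 0.299 with the block). Mrps27 (0.38, interval 0.03 to 0.73) and Mrps2, a protein of the small subunit's outer face (0.24, interval 0.02 to 0.47), were the other 2 at an unadjusted p under 0.05. Mrps27 had the lowest DMSO signals of these, 2.28 to 2.41 log2. By size of the difference, the 5 highest members also include Mrpl50 (0.27) and Mrps5, at the entry of the messenger RNA channel (0.23), with intervals that include 0. The Mrpl50 value comes from 1 of its 2 probe sets. The other, with a mean of 1.55 log2, differed little between the inhibitors (0.04 with rapamycin and 0.06 with KU-0063794 against DMSO). On the lower side were Mrpl18 (-0.13), Mrpl54 (-0.12), Mrpl10 (-0.10), Mrpl52 (-0.10) and Mrps23 (-0.09). Another Mrps23 probe set above the background level went the other way. Its differences from DMSO were -0.17 with rapamycin and -0.10 with KU-0063794. For Mrpl32 the difference was -0.0072 with an interval of -0.18 to 0.17, and for Mrpl45 it was 0.03 (-0.16 to 0.23).

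Members differed in how far their values can be read. The mean signals over 9 arrays ran from 2.30 log2 to 7.62 log2. Mrpl9 had by far the widest spread, with a standard error of 0.32. Its arrays from spleen 3 read 4.49, 4.83 and 4.87 in DMSO, rapamycin and KU-0063794, and the other 6 arrays read 3.77 to 4.19. Of the members 34 have a single probe set, among them Mrpl32, Mrpl22, Mrpl45, Mrpl46, Mrpl36 and Mrps16, so no other probe set can be set beside those calls. A second probe set above the background level existed for 22 members. All of a gene's probe sets above the background level had differences of the same sign in 13 of these for rapamycin and in 15 for KU-0063794.

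Around the mitoribosome, 4 of its proteins under other symbols were measured and none passed in limma. With rapamycin 2 were lower at an unadjusted p under 0.05, and with KU-0063794 none. Gadd45gip1, a large subunit protein also called CRIF1, read 5.89, 5.84 and 5.92 log2 in DMSO, 5.58, 5.50 and 5.75 in rapamycin and 5.68, 5.75 and 5.86 in KU-0063794 cultures, with a rapamycin difference of -0.28 (adjusted p = 0.130, or 0.0445 with the block). Of 25 genes for assembly of the mitoribosome or modification of its RNA none fell, and 1 rose with KU-0063794, the GTPase gene Noa1. It read 3.97, 4.04 and 4.27 in DMSO, 4.36, 4.27 and 4.43 in rapamycin and 4.55, 4.47 and 4.55 in KU-0063794 cultures (0.43, SE 0.09, adjusted p = 0.0379). With the block 5 of the 25 rose with KU-0063794, also Tfb1m, which methylates the small subunit RNA (0.36, adjusted p = 0.0372), Mtg1 (0.41, 0.0350), Mrm3 (0.33, 0.0415) and Eral1 (0.32, 0.0457). With rapamycin Tfb1m alone did so (0.35, 0.0428). Of all genes tested, 6.24% rose with rapamycin and 6.52% with KU-0063794 in the blocked fit. The medians of the list were 0.06 and 0.12.

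None of 13 translation factors of the mitochondrion passed in either fit, with medians of -0.08 for rapamycin and 0.07 for KU-0063794. At an unadjusted p under 0.05 there were none with rapamycin, and 1 higher and 1 lower with KU-0063794. They include Tufm, the elongation factor that brings tRNA to the ribosome (-0.17 and -0.21). Of 13 regulators of mitochondrial transcription and biogenesis none passed in the main fit, and at an unadjusted p under 0.05 2 were higher and 1 lower with rapamycin and 2 higher with KU-0063794. With the block Myc and Tfam rose with both inhibitors. Myc read 7.75, 7.85 and 7.49 log2 in DMSO, 8.33, 8.14 and 8.05 in rapamycin and 8.20, 8.13 and 7.93 in KU-0063794 cultures (0.48 and 0.39, adjusted p = 0.0598 and 0.115, or 0.00881 and 0.0175 with the block). Tfam, which packages mitochondrial DNA and starts its transcription, had differences of 0.30 and 0.27 (0.0268 and 0.0363 with the block).

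Of the factors whose cores were searched in the promoters, the GABP subunit gene Gabpb1 read 3.14, 2.82 and 2.95 log2 in DMSO, 2.80, 2.46 and 2.08 in rapamycin and 3.18, 2.80 and 2.60 in KU-0063794 cultures. It fell with rapamycin in the blocked fit only (-0.53, adjusted p = 0.192, or 0.0208 with the block). Its partner Gabpa (0.26 and 0.21), Nrf1 (-0.10 and 0.07), Yy1 (0.10 and 0.06) and the coactivator gene Ppargc1b (0.22 and 0.15) did not pass. Ppargc1a was not tested, its highest array being 0.25 log2. Among groups set beside the members, 45 cytosolic ribosomal protein genes had medians of 0.07 and 0.05, with 2 higher for rapamycin and 1 for KU-0063794. Of 33 complex I genes, whose proteins need the mitoribosome's products to assemble, 1 fell with each inhibitor, with medians of -0.08 and -0.04.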

How the data were processed

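Total RNA of the 9 cultures was hybridised to Affymetrix mouse expression arrays, 1 array a culture. The deposited values are log2 signals per probe set; the authors used Affymetrix Expression Console 1.3.1, per the submitters' processing notes, and the background correction, summarisation and normalization are not given in the sources used here. Of 45101 probe sets, 64 were controls; of the other 45037, the array annotation gave 34945 exactly 1 gene symbol and 932 several, and did not list 9160. Each of 18193 genes took its probe set with the highest mean, and 13278 genes with that mean above the 40th percentile of probe sets (0.31 log2) were tested with limma 3.58.1 (R 4.3.3; lmFit, eBayes, 3 groups, 9 arrays, two-sided). Adjustment was Benjamini-Hochberg over all genes tested; the intervals are 95% ones from the same fit with 9.39 degrees of freedom. Of these steps, the fit without the block was tested on simulated data, in which arrays of a spleen were drawn independently. The blocked fit was not tested in that way. The spleen, equal to the replicate number, comes from the labels, which put control and treated cultures of a number in the same spleen. Deviations from group means correlated at 0.345 to 0.533 for the 9 pairs of arrays of one spleen. For the other 18 pairs they correlated at -0.414 to -0.079. Deviations cancel within a group, which by itself makes the values for different spleens negative when those of one spleen are positive. Spread is between 3 spleens, and the number of arrays limits the precision. No 2 arrays had identical values (r 0.987 to 0.996).

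Members, gene lists, tests and the rule for named genes were chosen with earlier results of these data known. Named were members called in any comparison without or with the block, the 5 highest and 5 lowest in each comparison, up to 4 called genes of each other list, and Myc, Nrf1, Gabpa, Yy1, Ppargc1b and Tfam. Cd68, Mrm3, Eral1, Mrpl9, Mrpl58, Mrps7, Mrps12, Mrps35, Mrps36, Tufm and Ppargc1a were added after their values were seen. Other settings were a block for the spleen (fixed or random), only the 2 groups compared, other scalings, filters and probe set choices, trend and robust moderation, and each array or spleen left out. Promoter windows are from RefSeq, matched by gene identifier. The array annotation gives no positions.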

Additional observations from a re-analysis of the deposited data

How the results depend on the processing

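With the spleen as a fixed replicate block, 8 members were lower with rapamycin, and 4 were lower and 2 higher with KU-0063794; as a random replicate block the counts were 6 lower and 1 higher (Mrpl23) with rapamycin, where Mrpl35, Mrpl46 and Mrps16 lost and Mrps25 gained a call, and 4 lower and 1 higher (Mrpl23) with KU-0063794. Fitting only the 2 groups compared left 1 member lower in each comparison, Mrpl32. The cause of these differences in count was not tested. With arrays or whole spleens left out, without or with the block, 0 to 5 members were lower with rapamycin (0 to 3 without the block); with KU-0063794, 0 to 2 were lower (0 to 1 without the block) and 0 to 2 higher. Without any one spleen no member was called. The added setting that joins the block with left-out arrays was chosen after seeing the data.

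The median over members for KU-0063794 against DMSO was -0.0026 after quantile normalization and 0.0020 with the mean of a gene's probe sets, and -0.0359 to -0.0009 with arrays left out. For KU-0063794 against rapamycin it was 0.0378 with the mean of probe sets and 0.0361 to 0.0775 with arrays left out. The rapamycin median stayed negative in every setting run. The mean of probe sets, which takes in probe sets at background, also turned Mrpl21 with rapamycin to -0.0021 and Mrpl54 for KU-0063794 against rapamycin to 0.0808. Over the planned settings, the 5 calls of the main comparison (3 with rapamycin, 2 with KU-0063794) gave 105 values, of which 34 lost the call and none changed sign; of 609 values of other named members 21 gained a call and 2 changed sign. With 3 arrays a group, differences near the median standard error of 0.0888 log2 cannot be called.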
